A study of Mus musculus with 53 samples.

Results

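The transcripts followed here are those of 9 genes of T cells and cytotoxic lymphocytes, Cd3e, Cd3g, Cd8a, Cd8b1, Foxp3, Gzma, Gzmb, Itgae and Ccl5, out of 55421 genes counted in 53 libraries of mouse intestine. The genes were taken by symbol, with earlier results of these data known, and all 9 had a count in the table. Their levels were followed across 11 groups of tissue, and each mutant group was compared with the WT group of its own tissue and time.

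Cd3e and Cd3g encode chains of the CD3 complex, which carries the signal of the T cell receptor and marks T cells. Cd8a and Cd8b1 encode the chains of the CD8 co-receptor, and many T cells lying within the gut epithelium carry a pair of alpha chains with no beta chain. Foxp3 is the transcription factor that defines regulatory T cells. Gzma and Gzmb encode granzymes, the proteases that cytotoxic lymphocytes release into target cells. Itgae encodes CD103, the integrin alpha chain that holds intraepithelial lymphocytes to E-cadherin and that some dendritic cells also carry, and Ccl5 encodes a chemokine that activated cytotoxic T cells secrete. Intraepithelial lymphocytes are far more frequent in the small intestine than in the colon.

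RNA of whole tissue was sequenced, so that epithelium, stroma and immune cells were read together. All mice carried the VilCreER transgene, whose villin promoter drives a tamoxifen-inducible Cre in intestinal epithelial cells, and all labels name tamoxifen induction, WT groups included, so that the alleles were changed in the epithelium and not in T cells. In the proximal colon there were primary tumours of BrafV600E/+ Alk5fl/fl mice (BA tumours, n = 4), tissue of VilCreER mice without a further allele (WT proximal colon, n = 3), and tissue taken 30 days after induction from WT (d30 WT, n = 4), Alk5fl/fl (d30 A, n = 4), Alk5fl/fl given sulindac at 0.4 g/L in the drinking water for 14 days (d30 A sulindac, n = 4), BrafV600E/+ Alk5fl/fl (d30 BA, n = 5) and BrafV600E/+ Alk5fl/fl mice given antibiotics (d30 BA antibiotic, n = 5). The antibiotics were vancomycin at 500 mg/L with metronidazole, ampicillin and neomycin at 1 g/L each. In the small intestine there were Apcfl/fl tissue 4 days after induction (Apcfl/fl d4, n = 10) with its WT (WT d4, n = 6), and Apcfl/+ adenomas (Apcfl/+ tumours, n = 5) with WT small intestine (n = 3). The last pair was inbred C57BL6/J and the other groups were of mixed C57BL/6J background. Alk5 is the gene Tgfbr1, the type I receptor of TGFβ. The labels give neither age nor sex of single mice. The replicates are separately labelled samples, and nothing in the labels says that each came from its own mouse, so the p-values measure the spread between these samples.

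The libraries held 516985 to 32824795 reads on genes. The shallow extreme was library 1 of Apcfl/fl d4, in which 3 reads amount to 5.803 CPM (counts per 1000000 reads of the library total), against a limit of 0.138 to 0.192 CPM for 3 reads at the median total of the groups. Library 8 of Apcfl/fl d4 stood apart with a summed level of 412 CPM over 6 pan-leukocyte genes, against 120 to 197 CPM in the other 9. Ddx3y, a Y-linked gene chosen after its values were seen, was above 10 CPM in 3 of 4 BA tumours and 0 of 3 WT proximal colon libraries, and in 1 of 5 Apcfl/+ tumours and 3 of 3 WT small intestine libraries, so that a comparison within 1 class would rest on a single tumour library. Gm13394, chosen in the same way, was at 0.43 to 0.797 CPM in d30 WT and at 68.4 CPM or more in every library of the other day-30 groups. The part of sex and of Gm13394 in the results was not tested. Epithelial markers were present in every group (10 genes, summed level 7040 CPM or more in every library).

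The genes lie apart on the mouse genome (GRCm38, GENCODE M21), except for 2 pairs. Cd3e (chr9:44998740-45009627, minus strand) and Cd3g (chr9:44969572-44980431, minus strand) are neighbours, as are Cd8a (chr6:71373427-71379173, plus strand) and Cd8b1 (chr6:71322788-71337494, plus strand). Gzma is at chr13:113093825-113100981 and Gzmb at chr14:56258838-56262260, both on the minus strand. Itgae (chr11:73090583-73147446, plus strand) and Ccl5 (chr11:83525778-83530518, minus strand) share a chromosome. Foxp3 (chrX:7573644-7595245, plus strand) overlaps 4 other annotated genes, and 25.5% of the 36-base words of its exons occur in other genes, most of them in Flicr, a non-coding gene on the same strand. A further 7.87% of the words of Cd8b1 are shared, most with Plpbp. The other 7 genes had at most 2.5% of words in common with other genes, and counts of Foxp3 are therefore the least certain. Cd3e overlaps Gm48719 and Gm48720, and Itgae overlaps Haspin, and whether the counting used strand is not given in the sources used here.

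The promoters of the granzymes Gzma and Gzmb are shown because both are effector genes of cytotoxic lymphocytes. The stretches are the 150 bases before the RefSeq start of each gene (GRCm38.p6, 5′ to 3′ on the gene's strand), chr13:113100982-113101131 for Gzma and chr14:56262335-56262484 for Gzmb. RefSeq places the start of Gzmb upstream of its GENCODE start.
Gzma: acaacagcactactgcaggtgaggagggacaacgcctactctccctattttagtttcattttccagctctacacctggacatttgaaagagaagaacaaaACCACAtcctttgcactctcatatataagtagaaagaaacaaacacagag
Gzmb: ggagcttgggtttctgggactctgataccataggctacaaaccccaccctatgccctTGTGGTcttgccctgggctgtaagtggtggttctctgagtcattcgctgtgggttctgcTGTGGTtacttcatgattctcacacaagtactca
Capitals mark the RUNX core TGTGGT on either strand, the motif of a family that includes Runx3 of CD8 T cells. The Gzma stretch held 1 match, which begins 50 bases before the start, and the Gzmb stretch held 2, which begin 93 and 34 bases before it. Matches were found in 8.4% of 32851 windows of the same length, so that the motif is a description of these letters only. The same 150 bases of Cd3e, Cd3g, Cd8a and Foxp3 held 0 RUNX matches. Other short motifs (ETS, TATA, AP-1 and CRE) were also searched for, in the 250 bases before the start. RUNX was the only motif found for both granzymes, and Gzmb also held 1 AP-1 match.

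Among WT tissues, the small intestine had the higher levels of all members but Foxp3. Gzma was at 62.5 to 77.8 CPM in WT small intestine and at 78 to 168 CPM in WT d4, against 0.915 to 2.55 CPM in d30 WT colon and 0.872, 2.87 and 7.39 CPM in WT proximal colon. Itgae was at 22.8 to 36.1 CPM in the small intestine of both WT groups and at 4.3 to 7.25 CPM in WT colon. Foxp3 was the exception, with 0.37 to 1.74 CPM in WT small intestine and 0.43 to 1.47 CPM in WT colon. On the scale of CPM per kilobase of exon, the level of Cd8a in WT d4 had a median of 7.63 (range 6.05 to 9.68) and that of Cd8b1 a median of 0.92 (range 0.61 to 1.47), so that the alpha chain transcript was the more abundant in every library. Between genes of the same pair, Gzma had a median of 107 and Gzmb of 36.5 CPM per kilobase in WT d4, and in d30 WT colon 1.69 and 0.379. Cd3e was not in a fixed relation to Cd3g: the log2 ratio of their reads was -0.80 to -0.12 in WT d4, but -4.25, -2.45 and -0.56 in WT proximal colon and -3.00 to -1.49 in Apcfl/+ tumours. The levels by library and group are plotted for all members.

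**Figure D1:**
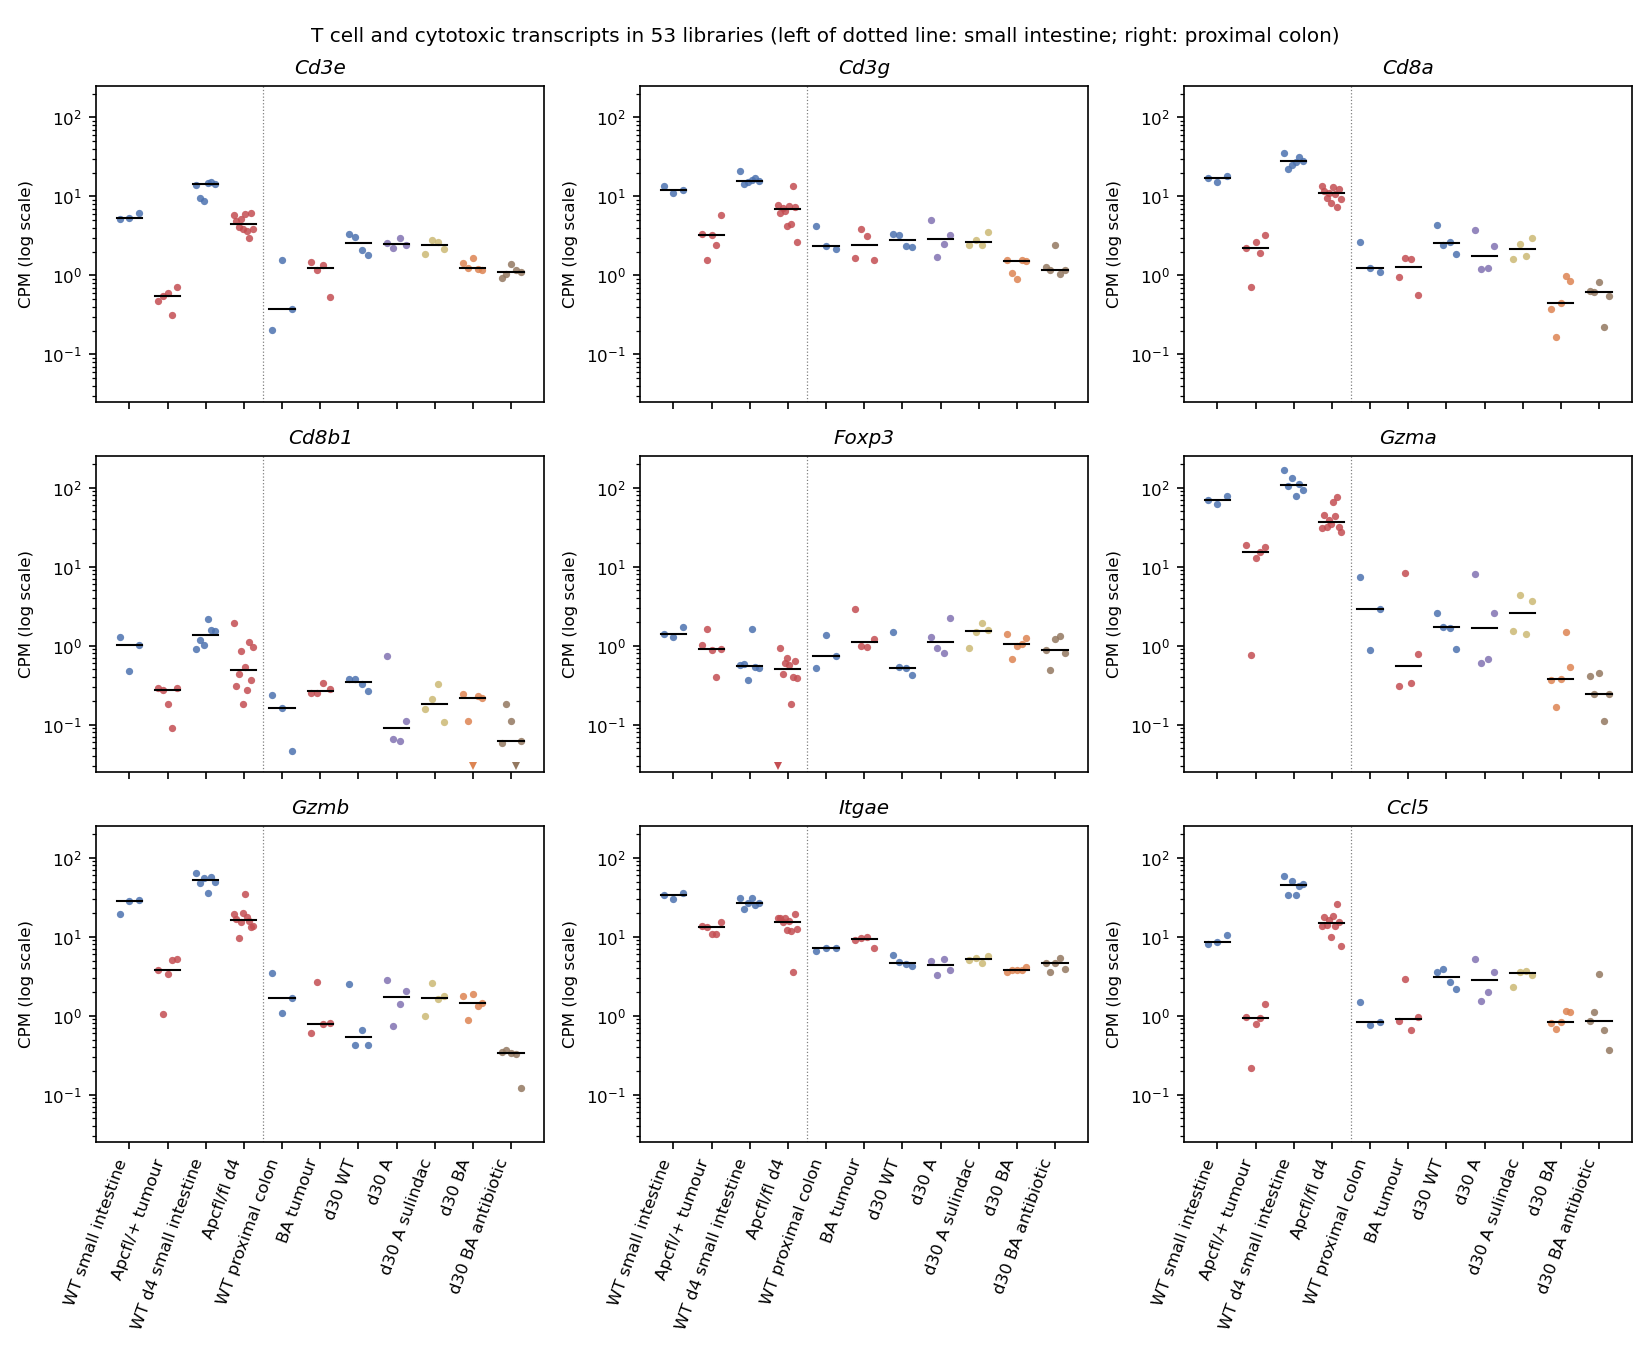
Level of each of the 9 transcripts in CPM (log axis) in every library, by group, with black bars for the group median and triangles at the bottom for libraries with 0 reads. The 4 small-intestine groups and 7 colon groups are split by the dotted line. Gzma reaches 168 CPM in WT d4 small intestine and lies between 0.111 and 0.445 CPM in the d30 BA antibiotic colon.

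Acute loss of Apc was followed in the small intestine 4 days after induction. Of the 9 transcripts, 8 fell in Apcfl/fl d4 against WT d4 and none rose, against 26.7% of all tested genes called lower and 27.5% called higher. The drop took in the T cell receptor complex, both CD8 chains, both granzymes, CD103 and Ccl5, while Foxp3 did not pass the test. Over the 8 transcripts that fell, the log2 fold changes lay between -1.83 (Gzmb) and -1.25 (Itgae). In bulk tissue, fewer cells of a type and less RNA per cell cannot be told apart.

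Among the CD3 chains, Cd3e was at 8.84, 14.2 and 15.3 CPM (lowest, median and highest of 6) in WT d4 and at 3, 4.5 and 6.12 CPM in Apcfl/fl d4. The groups did not overlap, and the log2 fold change was -1.76 ± 0.16 (SE, adjusted p = 3.5e-07). Cd3g was at 14.3, 15.9 and 20.9 CPM in WT d4 and at 2.63, 6.83 and 13.4 CPM in Apcfl/fl d4, where its highest value came from library 8, the library with the high pan-leukocyte level. Its log2 fold change was -1.54 ± 0.29 (adjusted p = 3.0e-04). Cd8a was at 22, 27.7 and 35.2 CPM in WT d4 and at 7.4, 11 and 13.5 CPM in Apcfl/fl d4. The 2 groups lay far apart, and Cd8a differed by -1.70 ± 0.12 on the log2 scale (adjusted p = 7.4e-08). Cd8b1 was low in both groups, with 21 to 35 reads per library in WT d4 and 1 to 17 in Apcfl/fl d4, and its log2 fold change was -1.60 ± 0.37 (adjusted p = 0.00153). This is the only comparison with a WT group in which Cd8b1 had enough reads to be tested. Foxp3 did not pass the test. It was at 0.37, 0.557 and 1.61 CPM in WT d4 and at 0, 0.508 and 0.937 CPM in Apcfl/fl d4, where the shallow library 1 held 0 reads, and the groups overlapped (log2 fold change -0.65 ± 0.34, adjusted p = 0.117).

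The granzymes followed. Gzma was at 78, 108 and 168 CPM in WT d4 and at 27.1, 36.4 and 76.2 CPM in Apcfl/fl d4 (log2 fold change -1.64 ± 0.27, adjusted p = 7.2e-05). Gzmb was at 36.1, 52.5 and 64.6 CPM in WT d4 and at 9.65, 16.3 and 34.9 CPM in Apcfl/fl d4 (log2 fold change -1.83 ± 0.21, adjusted p = 3.9e-06). Neither granzyme overlapped between the groups, although the highest Apcfl/fl d4 library came close to the lowest WT d4 library for both. Itgae was at 22.8, 27 and 31 CPM in WT d4 and at 3.6, 15.6 and 19.3 CPM in Apcfl/fl d4 (log2 fold change -1.25 ± 0.20, adjusted p = 5.3e-05). Ccl5 was at 33.6, 44.9 and 58.4 CPM in WT d4 and at 7.62, 14.9 and 25.9 CPM in Apcfl/fl d4 (log2 fold change -1.77 ± 0.25, adjusted p = 1.9e-05). The same 8 members were called without libraries 1 and 8 of Apcfl/fl d4, a choice made after the data were seen.

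Other genes of these cells moved with the members. Of 22 further genes of T cell receptor signalling, 18 fell and 2 rose, with a median log2 fold change of -1.41 against -0.00 for all tested genes. The summed level of the list did not move apart in the same way, at 137 to 205 CPM in WT d4 and 155 to 185 CPM in Apcfl/fl d4. Zap70, the kinase recruited by the receptor, changed by -1.81 (adjusted p = 2.8e-07), and Trdc, the constant chain of the gamma delta receptor, by -1.55 (adjusted p = 1.5e-06). The 2 genes that rose were Tcf7, which is also a target of Wnt signalling (1.99, adjusted p = 4.2e-07), and Bcl11b (0.41, adjusted p = 0.0239). Of 13 tested cytotoxic and NK genes, 11 fell and none rose (median -1.32), among them Klrd1 (-1.57, adjusted p = 7.9e-06) and Tbx21 (-1.93, adjusted p = 7.5e-06). Of 14 genes of intraepithelial and homing T cells, 10 fell and 1, Jaml, rose (1.40, adjusted p = 3.6e-05), and Cxcr6 fell by 1.75 on the log2 scale (adjusted p = 5.1e-07). The summed level of these 14 genes did not fall, at 189 to 237 CPM in WT d4 and 238 to 320 CPM in Apcfl/fl d4. Summed levels are on the library total, which put the median of all tested genes at 0.27 on the log2 scale in this comparison. With TMM it was -0.00, so the sums cannot be set directly against the fold changes. Il15, the cytokine that keeps intraepithelial lymphocytes alive, changed by -1.50 on the log2 scale (adjusted p = 6.8e-05), Ccl25, the epithelial chemokine that draws T cells to the small intestine, by -1.72 (adjusted p = 2.9e-06), and the epithelial butyrophilin-like gene Btnl4 by -1.31 (adjusted p = 1.3e-05). Markers of other immune cells moved too. All 10 dendritic cell genes fell (median -1.02; summed level 236 to 285 CPM in WT d4 and 159 to 240 CPM in Apcfl/fl d4), as did 4 of 6 pan-leukocyte genes, while 2 of 10 epithelial genes fell and 1 rose (summed level 10300 to 11400 CPM in WT d4 and 8020 to 11600 CPM in Apcfl/fl d4). Itgae is carried by dendritic cells as well, and their part in its change was not tested.

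The transcripts were also low in established tumours of the small intestine. Of the 8 members tested in Apcfl/+ tumours against WT small intestine, 7 fell and none rose, against 30.09% of all tested genes called lower and 31.4% called higher. Cd3e and Ccl5 had the largest log2 fold changes and Itgae the smallest of the called ones. Foxp3 again did not pass the test. Cd3e was at 5.24, 5.25 and 6.25 CPM in WT small intestine and at 0.48, 0.545, 0.599, 0.313 and 0.716 CPM in the 5 tumours, a log2 fold change of -3.38 ± 0.24 (adjusted p = 2.4e-05). Cd3g was at 13.4, 10.9 and 12 CPM in WT and at 3.31, 1.58, 3.22, 2.42 and 5.84 CPM in the tumours (log2 fold change -1.87 ± 0.36, adjusted p = 0.00228). Both chains were without overlap between tumours and WT.

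Cd8a was at 16.9, 15.2 and 17.9 CPM in WT small intestine and at 2.21, 0.708, 2.62, 1.93 and 3.22 CPM in the tumours (log2 fold change -2.93 ± 0.38, adjusted p = 3.2e-04). Cd8b1 was not tested here, with 9 to 26 reads per library in WT and 2 to 8 in the tumours. Foxp3 was at 1.4, 1.29 and 1.74 CPM in WT and at 1.01, 1.63, 0.875, 0.403 and 0.895 CPM in the tumours, and tumour 2 lay within the WT range. Its log2 fold change was -0.65 ± 0.34 (adjusted p = 0.13), and without tumour 2 it was -0.85 (adjusted p = 0.0318), so that 1 library decided this call. Gzma was at 68.9, 62.5 and 77.8 CPM in WT and at 18.9, 0.763, 12.8, 15.4 and 17.7 CPM in the tumours (log2 fold change -2.38 ± 0.68, adjusted p = 0.0143). Tumour 2 was the lowest for Gzma, Gzmb, Cd8a, Cd3g and Ccl5 and the highest for Foxp3. Gzmb was at 19.5, 28.2 and 29.4 CPM in WT and at 3.84, 1.04, 3.36, 5.06 and 5.16 CPM in the tumours (log2 fold change -2.77 ± 0.43, adjusted p = 7.6e-04). Itgae was at 33.7, 29.7 and 36.1 CPM in WT and at 13.6, 13.4, 10.9, 10.8 and 15.6 CPM in the tumours (log2 fold change -1.37 ± 0.14, adjusted p = 8.8e-05). Ccl5 was at 8.03, 8.67 and 10.6 CPM in WT and at 0.96, 0.218, 0.783, 0.94 and 1.4 CPM in the tumours (log2 fold change -3.36 ± 0.42, adjusted p = 2.4e-04). Each of the 7 called transcripts was lower in every tumour than in every WT library. How many of all tested genes were without overlap was not counted, here or in the other comparisons, so the separation is a description only.

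Of the 22 T cell receptor genes, 13 fell in the tumours and 2 rose, Tcf7 (1.62, adjusted p = 2.2e-04) and Thy1 (1.35, adjusted p = 4.1e-04), which fibroblasts also express (median of the list -0.94). Of 13 tested cytotoxic and NK genes, 12 fell and none rose (median -2.23), among them Ctsw (-1.88, adjusted p = 8.0e-05), Xcl1 (-2.50, adjusted p = 1.3e-04) and Fasl (-2.86, adjusted p = 1.6e-04). Of 8 regulatory T cell genes other than Foxp3, 1 rose, Ctla4 (1.29, adjusted p = 0.0238), and none fell (median -0.13). Among the ligands and niche genes, Il15 changed by -2.37 (adjusted p = 5.0e-05) and Il15ra, which presents it, by -1.41 (adjusted p = 4.0e-04). Other cell types moved in both directions. Of 8 tested mast cell genes, 7 rose (median 4.35; summed level 14.6 to 20.2 CPM in WT and 70.2 to 191 CPM in tumours), whereas 7 of 10 dendritic cell genes fell (summed level 303 to 310 CPM in WT and 130 to 165 CPM in tumours) and 6 of 10 epithelial genes rose (summed level 7040 to 8320 CPM in WT and 7470 to 12600 CPM in tumours). The part of these cells in the members' change was not tested.

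BA tumours of the proximal colon gave another picture. None of the 8 members tested passed the test against WT proximal colon, where 7.46% of all tested genes were called higher and 5.71% lower. At an unadjusted p under 0.05, edgeR's quasi-likelihood test called 0 of them, and DESeq2 called 0 at an adjusted p under 0.05. Cd3e was at 0.206, 1.58 and 0.371 CPM in WT proximal colon and at 1.48, 1.16, 1.34 and 0.528 CPM in the tumours, with WT library 2 above all tumours (log2 fold change 0.65 ± 0.73, adjusted p = 0.61). Cd3g was at 4.23, 2.34 and 2.13 CPM in WT and at 1.68, 3.83, 3.18 and 1.58 CPM in the tumours (log2 fold change -0.08 ± 0.50). Cd8a was at 2.65, 1.25 and 1.11 CPM in WT and at 0.967, 1.66, 1.62 and 0.569 CPM in the tumours (log2 fold change -0.41 ± 0.54). The 3 transcripts overlapped between the groups.

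Foxp3 was at 0.515, 1.36 and 0.741 CPM in WT proximal colon and at 2.9, 0.998, 0.947 and 1.22 CPM in the tumours, where tumour 1 stood out (log2 fold change 0.74 ± 0.51, adjusted p = 0.388). Gzma was at 7.39, 0.872 and 2.87 CPM in WT and at 0.305, 8.32, 0.334 and 0.772 CPM in the tumours. Of the tumours, 3 of 4 were below all WT libraries and tumour 2 was above them. With all tumours the log2 fold change of Gzma was -0.35 ± 1.22 (adjusted p = 0.888), and without tumour 2 it was -3.00 (adjusted p = 0.0283). Gzmb was at 3.44, 1.09 and 1.67 CPM in WT and at 0.611, 2.66, 0.78 and 0.812 CPM in the tumours (log2 fold change -0.65 ± 0.69, adjusted p = 0.589). Itgae was at 6.6, 7.25 and 7.18 CPM in WT and at 9.16, 9.65, 9.86 and 7.23 CPM in the tumours (log2 fold change 0.39 ± 0.28, adjusted p = 0.397). Ccl5 was at 1.51, 0.763 and 0.834 CPM in WT and at 0.865, 2.91, 0.669 and 0.975 CPM in the tumours (log2 fold change 0.49 ± 0.67, adjusted p = 0.685). Tumour 2 also had the highest Cd8a, Cd3g and Gzmb, and its pan-leukocyte level was 390 CPM against 277 to 311 CPM in the other tumours.

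Other immune lists did change in these tumours. Of the 21 T cell receptor genes tested, 3 rose, Thy1 (1.93, adjusted p = 0.00968), Cd6 (1.95, adjusted p = 0.0137) and Cd5 (1.74, adjusted p = 0.033), and none fell (median 0.52). Fibroblasts also express Thy1, and the summed level of 8 fibroblast genes was 1800 to 2460 CPM in WT and 3830 to 5390 CPM in the tumours (3 rose and 1 fell). Of 9 tested regulatory T cell genes, 3 rose, Lrrc32 (2.32, adjusted p = 0.0105), Tnfrsf4 (1.89, adjusted p = 0.0381) and Ctla4 (2.29, adjusted p = 0.0467), and none fell (median 1.18). Of 10 tested cytotoxic and NK genes, 2 rose, Eomes (2.93, adjusted p = 0.0192) and Runx3 (3.10, adjusted p = 0.0494), and 2 fell, Xcl1 (-2.47, adjusted p = 0.0253) and Nkg7, a protein of cytotoxic granules (-2.09, adjusted p = 0.042). The inhibitory receptor Pdcd1 rose (2.34, adjusted p = 0.015). Of 10 B and plasma cell genes, 7 rose (summed level 245 to 616 CPM in WT and 208 to 573 CPM in tumours), and 4 of 6 pan-leukocyte genes rose (126 to 143 CPM in WT and 277 to 390 CPM in tumours). All 10 neutrophil genes rose (4.71 to 6.59 CPM in WT and 156 to 417 CPM in tumours), as did 3 of 10 macrophage genes (352 to 410 CPM in WT and 528 to 1050 CPM in tumours). The part of these cells was not tested. The T cell receptor chain genes themselves were not among the called genes.

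**Figure D2:**
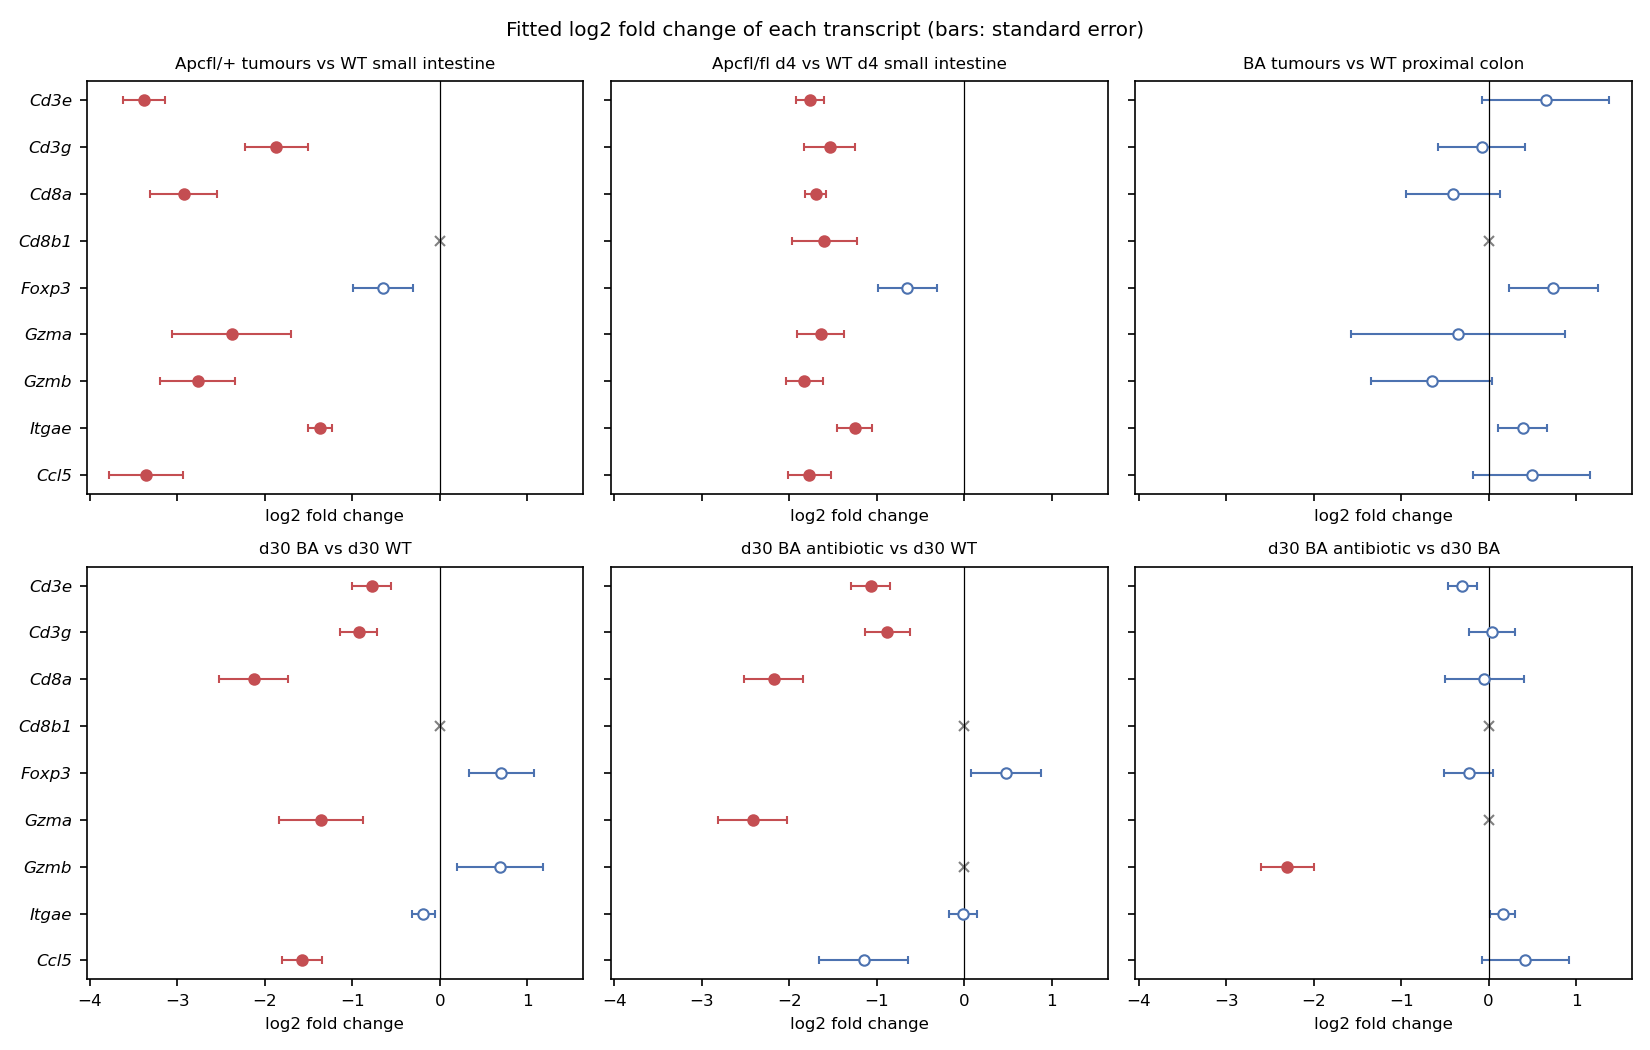
Fitted log2 fold change of each transcript with its standard error in 6 comparisons. Filled red points passed the adjusted p threshold of 0.05, open blue points did not, and grey crosses mark transcripts with too few reads to be tested. Of the transcripts tested, 7 fell in Apcfl/+ tumours, 8 in Apcfl/fl d4, 5 in d30 BA, 4 in d30 BA antibiotic and 0 in BA tumours, and Gzmb fell in d30 BA antibiotic against d30 BA.

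The difference between both kinds of tumour was tested directly, as the BA tumour effect minus the Apcfl/+ tumour effect. The difference was above 0 for 5 of 8 members tested and below 0 for none at the threshold, against 21.9% of all tested genes called higher and 17.7% called lower. It was 4.07 ± 0.78 for Cd3e (adjusted p = 0.0016), 3.84 ± 0.82 for Ccl5 (adjusted p = 0.00298), 2.52 ± 0.68 for Cd8a (adjusted p = 0.0104), 1.80 ± 0.64 for Cd3g (adjusted p = 0.0366) and 1.79 ± 0.27 for Itgae (adjusted p = 3.8e-04), on the log2 scale. Gzmb (2.09 ± 0.84, adjusted p = 0.0609), Foxp3 (1.44 ± 0.63, adjusted p = 0.0794) and Gzma (1.92 ± 1.48, adjusted p = 0.31) did not pass. Gzmb was called without BA tumour 1 (2.30, adjusted p = 0.0472) or WT proximal colon 1 (2.61, adjusted p = 0.0479), and Foxp3 without WT proximal colon 2 (1.83, adjusted p = 0.032) or Apcfl/+ tumour 2 (1.52, adjusted p = 0.0498). The call of Cd3g held in 4 of 15 fits with a library left out, with differences of 1.30 to 2.11. The calls of Cd3e, Ccl5, Cd8a and Itgae held in all 15. These tumours differ in organ, genetic background and genotype, which cannot be told apart, and the WT levels of all members but Foxp3 were lower in proximal colon than in small intestine.

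The drop in Apcfl/+ tumours was compared with that of Apcfl/fl d4 in the same way. Cd3e (-1.66 ± 0.28, adjusted p = 2.6e-04), Ccl5 (-1.60 ± 0.47, adjusted p = 0.0156) and Cd8a (-1.27 ± 0.33, adjusted p = 0.00811) fell further in the tumours, against 12.3% of tested genes called lower and 12.4% called higher, and these 3 calls held in all 24 fits with a library left out. The other 6 members did not pass, among them Gzmb (-0.97 ± 0.45, adjusted p = 0.121), Itgae (-0.16 ± 0.31, adjusted p = 0.76) and Foxp3 (-0.04 ± 0.56, adjusted p = 0.979). The pairs differ in genetic background, Apc genotype, time and tumour state, which cannot be told apart. Median WT levels of all members but Itgae and Foxp3 were lower in WT small intestine than in WT d4. For Cd3e they were 5.25 and 14.2 CPM, and for Ccl5 8.67 and 44.9 CPM.

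**Figure D3:**
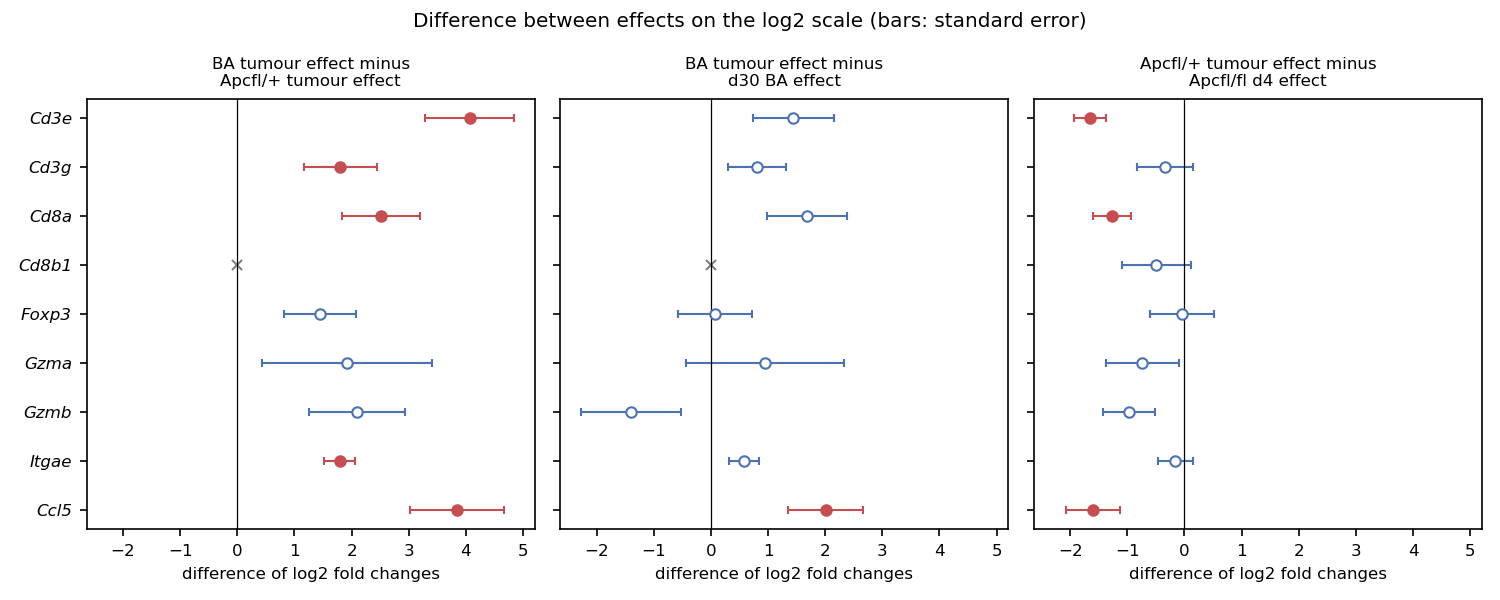
Difference between the effects of a pair of comparisons, on the log2 scale with its standard error. Filled red points passed the adjusted p threshold of 0.05, open blue points did not, and grey crosses mark transcripts not tested. Of the members, 5 lie above 0 at the threshold for BA tumours against Apcfl/+ tumours, 1 for BA tumours against d30 BA, and 3 lie below 0 for Apcfl/+ tumours against Apcfl/fl d4.

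In the colon 30 days after induction, before tumours, the members fell in part. Of 8 tested in d30 BA against d30 WT, 5 fell and none rose, against 29.3% of all tested genes called lower and 25.8% called higher. The transcripts that fell were the CD3 chains, Cd8a, Gzma and Ccl5. Foxp3, Gzmb and Itgae did not pass. Cd3e was at 3.31, 3.03, 2.07 and 1.83 CPM in d30 WT and at 1.42, 1.23, 1.66, 1.21 and 1.18 CPM in d30 BA (log2 fold change -0.78 ± 0.22, adjusted p = 0.0093). Cd3g was at 3.31, 3.29, 2.35 and 2.26 CPM in d30 WT and at 1.55, 1.06, 0.905, 1.56 and 1.51 CPM in d30 BA (log2 fold change -0.93 ± 0.21, adjusted p = 0.00331). In CPM of the library total, both chains were lower in every BA library than in every WT library. For Cd3e the gap was narrow, 1.66 against 1.83 CPM. That scaling put the median of all tested genes at -0.18, against -0.03 with TMM.

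Cd8a fell the furthest. It was at 4.35, 2.44, 2.64 and 1.88 CPM in d30 WT and at 0.371, 0.168, 0.452, 0.98 and 0.86 CPM in d30 BA, without overlap (log2 fold change -2.13 ± 0.39, adjusted p = 7.9e-04). Cd8b1 had 5 to 7 reads per library in d30 WT and 0 to 4 in d30 BA and was not tested. Foxp3 was at 1.47, 0.531, 0.518 and 0.43 CPM in d30 WT and at 1.42, 0.672, 0.98, 1.04 and 1.24 CPM in d30 BA. WT library 1 lay above all BA libraries and the other 3 lay below them, and the log2 fold change was 0.70 ± 0.37 (adjusted p = 0.126), or 1.24 without WT library 1 (adjusted p = 0.00595).

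Among the granzymes, Gzma was at 2.55, 1.7, 1.69 and 0.915 CPM in d30 WT and at 0.371, 0.168, 0.377, 1.5 and 0.538 CPM in d30 BA (log2 fold change -1.36 ± 0.48, adjusted p = 0.0298). BA library 4 overlapped the WT range, and the call was lost in 7 of 9 fits with a library left out, with adjusted p of 0.0545 to 0.0842 in those, in the fit of all 5 day-30 groups (0.108) and with the replicate number as a block (0.0853). Gzmb was at 2.55, 0.425, 0.659 and 0.43 CPM in d30 WT and at 1.79, 0.896, 1.88, 1.33 and 1.45 CPM in d30 BA (log2 fold change 0.69 ± 0.49, adjusted p = 0.248). Again WT library 1 stood above the other 3, which were below every BA library, and without it the log2 fold change was 1.64 (adjusted p = 0.00165). That library had a summed level of 33.9 CPM over 8 lymphoid follicle genes against 19.2 to 20.2 CPM in the other WT libraries, and 162 CPM over the pan-leukocyte genes against 109 to 124 CPM. The part of lymphoid tissue in its granzyme and Foxp3 levels was not tested. Itgae was at 5.87, 4.78, 4.52 and 4.3 CPM in d30 WT and at 3.59, 3.75, 3.77, 3.8 and 4.19 CPM in d30 BA (log2 fold change -0.19 ± 0.13, adjusted p = 0.233). On the library total its log2 fold change was -0.35 (adjusted p = 0.0479), since that scaling moved the median of all genes to -0.18. Ccl5 was at 3.53, 3.88, 2.68 and 2.21 CPM in d30 WT and between 0.672 and 1.15 CPM in the 5 libraries of d30 BA, without overlap (log2 fold change -1.58 ± 0.23, adjusted p = 1.7e-04).

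Of the 22 T cell receptor genes, 12 fell in d30 BA and 1 rose, Bcl11b (0.43, adjusted p = 0.00303), with a median of -0.76. The gamma delta receptor chains Tcrg-C4 (-2.34, adjusted p = 5.3e-05) and Tcrg-C2 (-1.90, adjusted p = 6.5e-05) led the list. Not every T cell gene fell: Trac (-0.15, adjusted p = 0.617), Cd4 (0.07, adjusted p = 0.778) and Cd3d (-0.58, adjusted p = 0.112) did not pass. Of 9 tested cytotoxic and NK genes, 6 fell and 1, Eomes, rose (2.59, adjusted p = 2.6e-05), and Klrd1 fell by 2.74 on the log2 scale (adjusted p = 4.5e-06) and Ctsw by 1.77 (adjusted p = 2.4e-05). Of 14 intraepithelial and homing genes, 8 fell (median -0.67). Of 8 tested regulatory T cell genes, 1 fell, Lrrc32 (-1.06, adjusted p = 1.6e-04), and none rose (median 0.07). B2m, the light chain of MHC class I, fell by 1.46 on the log2 scale (adjusted p = 1.4e-07), Ccl20 by 3.60 (adjusted p = 7.8e-06), Btnl1 by 1.28 (adjusted p = 9.4e-06) and Il15ra by 1.37 (adjusted p = 5.5e-05), and Cxcl16, the ligand of Cxcr6, rose (1.45, adjusted p = 2.6e-06). Epithelial genes rose at the same time, 9 of 10 of them (median 0.73; summed level 11100 to 13500 CPM in d30 WT and 20100 to 23600 CPM in d30 BA), 7 of 8 fibroblast genes fell (1490 to 1870 CPM in d30 WT and 950 to 1230 CPM in d30 BA) and 0 of 6 pan-leukocyte genes passed the test. The dendritic cell, B and plasma cell, and mast cell lists had lower summed levels in d30 BA. Most of their tested genes were not called lower, and 29.3% of all tested genes were called lower in this comparison. Kit was the only mast cell gene that fell (-1.37, adjusted p = 2.0e-05). Mcpt1 (0.22, adjusted p = 0.629) and Cpa3 (0.15, adjusted p = 0.757) did not pass. The summed level of dendritic cell genes was 143 to 171 CPM in d30 WT and 72.3 to 84.5 CPM in d30 BA (3 of 9 tested genes fell and 1 rose), that of B and plasma cell genes 463 to 852 and 93.8 to 371 CPM (2 of 6 fell), and that of mast cell genes 61.2 to 90.6 and 25.7 to 36.7 CPM (1 of 5 fell). The neutrophil list was at 3.51 to 5.87 CPM in d30 WT and 302 to 469 CPM in d30 BA, with 3 of its 10 genes tested. Of these Ly6g rose (10.77, adjusted p = 6.3e-10), Il1r2 fell (-0.60, adjusted p = 0.0358) and Csf3r did not pass (0.50, adjusted p = 0.0985). The other genes of the list, S100a8 and S100a9 among them, had too few reads to be tested. The higher summed level therefore rests on Ly6g. The part of these cells in the members' change was not tested. A larger share of epithelial RNA in the library and fewer T cells per epithelial cell cannot be told apart here.

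The d30 A mice lack Alk5 in the epithelium and do not carry the mutant Braf allele. Against d30 A, Cd3e, Cd3g, Cd8a, Gzma and Ccl5 fell in d30 BA, with 23.6% of all tested genes called lower and 21.7% called higher. The log2 fold changes were -0.70 ± 0.19 for Cd3e (adjusted p = 0.0122), -1.02 ± 0.31 for Cd3g (adjusted p = 0.0198), -1.65 ± 0.48 for Cd8a (adjusted p = 0.0153), -2.09 ± 0.78 for Gzma (adjusted p = 0.0476) and -1.52 ± 0.37 for Ccl5 (adjusted p = 0.006). The d30 BA libraries are shared with the comparison above, and the comparisons of all 4 other day-30 groups with d30 WT share the 4 WT libraries. Without library 1 of d30 A, in which Gzma was at 8.03 CPM against 0.599 to 2.62 CPM in the other 3, the log2 fold change of Gzma was -0.90 (adjusted p = 0.281) and that of Cd3g -0.69 (adjusted p = 0.0601). The call of Gzma held in 2 of 8 fits with a library left out and was lost with DESeq2 (adjusted p = 0.0621) and under the replicate block (adjusted p = 0.0533), and that of Cd3e was lost without the low-count filter (-0.65, adjusted p = 0.0651).

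Loss of Alk5 alone did not change a member at the threshold. In d30 A against d30 WT, 0 of 8 tested members were called by edgeR (0 at an unadjusted p under 0.05) or by DESeq2, with 0.096% of all tested genes called higher and 0.0452% lower. Foxp3 was at 1.28, 0.931, 0.799 and 2.23 CPM in d30 A (log2 fold change 0.81 ± 0.45, adjusted p = 0.544), and Gzmb at 2.83, 0.732, 1.41 and 2.06 CPM (0.78 ± 0.60, adjusted p = 0.613). Both lay above 3 of the 4 WT libraries in every d30 A library. Cd8a was at 3.71, 1.2, 1.23 and 2.34 CPM (-0.44 ± 0.40, adjusted p = 0.665), with library 1 the highest for Cd8a, Cd8b1, Cd3g, Gzma, Gzmb and Ccl5. The remaining members had log2 fold changes of -0.20 (Itgae), -0.04 (Cd3e), -0.01 (Ccl5), 0.14 (Cd3g) and 0.79 (Gzma).

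Sulindac, an inhibitor of cyclo-oxygenase, did not move them at the threshold either. In d30 A sulindac against d30 WT, 0 of 8 members were called by edgeR (1 at an unadjusted p under 0.05) or by DESeq2, with 0.0507% of tested genes called higher and 0% lower. Foxp3 had the smallest unadjusted p, 0.0317, at 0.934, 1.47, 1.93 and 1.56 CPM (log2 fold change 1.00 ± 0.40, adjusted p = 0.524). Gzmb was at 0.986, 2.63, 1.61 and 1.77 CPM (0.79 ± 0.55, adjusted p = 0.642) and Cd8a at 1.61, 2.52, 1.74 and 2.95 CPM (-0.35 ± 0.30, adjusted p = 0.7). The other log2 fold changes ran from -0.11 (Cd3e) to 0.67 (Gzma). Against untreated d30 A, 0 of 8 members and 0% of all genes were called higher and 0% lower by edgeR, and the members' log2 fold changes ran from -0.12 (Cd3g) to 0.31 (Itgae), with 0 of 8 at an unadjusted p under 0.05. DESeq2 called 7 genes of the whole table and 0 members there.

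In d30 BA antibiotic, Gzmb was lower than in d30 BA, and the CD3 chains, Cd8a and Gzma were lower than in d30 WT. Against d30 WT, 4 of 7 members tested fell in d30 BA antibiotic and none rose, with 17.8% of all tested genes called lower and 21.8% called higher. Cd3e was at 0.927, 1.04, 1.39, 1.16 and 1.1 CPM (log2 fold change -1.07 ± 0.22, adjusted p = 0.0035) and Cd8a at 0.638, 0.612, 0.834, 0.221 and 0.552 CPM (-2.18 ± 0.34, adjusted p = 7.1e-04), both below all d30 WT libraries. Cd3g was at 1.28, 1.16, 2.39, 1.05 and 1.17 CPM (-0.88 ± 0.26, adjusted p = 0.0233), with library 3 within the WT range, and its call was lost without WT library 1 (-0.81, adjusted p = 0.0601), without WT library 2 (-0.79, adjusted p = 0.062) and under the block (-0.87, adjusted p = 0.0624). Gzma was at 0.406, 0.245, 0.445, 0.111 and 0.245 CPM, below every d30 WT library (-2.42 ± 0.39, adjusted p = 7.7e-04). Ccl5 was at 0.869, 1.1, 3.39, 0.664 and 0.368 CPM (-1.15 ± 0.51, adjusted p = 0.1), and the value was -1.90 without library 3 (adjusted p = 8.4e-04) and -1.18 in the fit of all 5 day-30 groups (adjusted p = 0.0371). Foxp3 was at 0.869, 0.489, 1.22, 1.33 and 0.797 CPM (0.48 ± 0.40, adjusted p = 0.377), or 1.01 without WT library 1 (adjusted p = 0.0444). Itgae was at 4.64, 3.55, 4.67, 5.42 and 3.86 CPM (-0.02 ± 0.16, adjusted p = 0.921).

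Against untreated d30 BA, Gzmb alone of 7 tested members was called, with 8.5% of all tested genes called lower and 4.53% called higher. Gzmb was at 0.348, 0.367, 0.334, 0.332 and 0.123 CPM with antibiotics, 2 to 6 reads per library, against 0.896 to 1.88 CPM in d30 BA, without overlap (log2 fold change -2.30 ± 0.30, adjusted p = 0.00106), and the call held in all 10 fits with a library left out. These levels also lay below the 4 d30 WT libraries, a comparison that was not tested because Gzmb did not pass the filter on low counts. The changes of Cd3e (-0.30 ± 0.17, adjusted p = 0.326), Cd3g (0.04 ± 0.26), Cd8a (-0.05 ± 0.45), Foxp3 (-0.23 ± 0.28) and Itgae (0.16 ± 0.14) did not pass, and Gzma, at 2 to 8 reads per library with antibiotics, was not tested. Among the ligands, Il15 (-0.93, adjusted p = 5.3e-04), Btnl1 (-0.92, adjusted p = 8.3e-04), Btnl6 (-0.55, adjusted p = 0.00843) and Cd274 (-1.06, adjusted p = 0.0328) fell, 4 of 20 tested, and none rose. Of the 18 tested T cell receptor genes 2 fell, Cd6 (-1.16, adjusted p = 0.00534) and Bcl11b (-0.51, adjusted p = 0.0266). Pan-leukocyte genes were at 67 to 182 CPM (median 70.6) with antibiotics and 94.7 to 138 CPM (median 104) without. Epithelial genes were at 19600 to 26800 CPM with antibiotics and 20100 to 23600 CPM without. The part of leukocyte content in the change of Gzmb was not tested.

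The effect in BA tumours differed from that in d30 BA for Ccl5 (2.01 ± 0.66 on the log2 scale, adjusted p = 0.0478), 1 of 8 members tested, against 9.87% of all tested genes called higher and 6.46% called lower. That call held in 5 of 16 fits with a library left out (range 1.25 to 2.32) and was lost without the low-count filter (1.89, adjusted p = 0.0572). A count of 1 in 8 is near the share of all tested genes. The WT groups of this test also differed in Ddx3y, above 10 CPM in 0 of 3 WT proximal colon and 4 of 4 d30 WT libraries, and its part was not tested. The differences of Cd8a (1.69 ± 0.70, adjusted p = 0.111), Cd3e (1.44 ± 0.71, adjusted p = 0.181) and Gzmb (-1.40 ± 0.88, adjusted p = 0.306) did not pass. Single libraries decided the last pair, since Cd3e was at 2.84 without WT proximal colon 2 (adjusted p = 0.00308) and Gzmb at -2.19 without BA tumour 2 (adjusted p = 0.0442).

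Ratios between members within a library do not depend on how libraries are scaled. They were compared with exact two-sided permutation tests over samples, 6 ratios in 10 comparisons, 60 tests in all. After adjustment over these tests none passed (smallest adjusted p = 0.0824), and 18 had an unadjusted exact p under 0.05. Outside Apcfl/fl d4, the groups were too small for even a full separation to pass this adjustment by itself. With 5 and 4 samples, or 5 and 5, the smallest possible exact permutation p is 0.00794. Foxp3 to Cd3e had the smallest p. Its log2 ratio was -3.04 ± 0.53 (SD, n = 10) in Apcfl/fl d4 and -4.27 ± 0.61 (n = 6) in WT d4 (exact permutation p = 0.00137, adjusted p = 0.0824). In Apcfl/+ tumours it was 0.75 ± 0.53 (n = 5) against -1.91 ± 0.09 (n = 3) in WT small intestine (exact permutation p = 0.0179, adjusted p = 0.107, the smallest p these group sizes allow), and in d30 BA it was -0.35 ± 0.42 (n = 5) against -1.90 ± 0.54 (n = 4) in d30 WT (exact permutation p = 0.00794, adjusted p = 0.0952). None of these adjusted values passed. In BA tumours the ratio was 0.36 ± 0.83 (n = 4) against 0.67 ± 0.77 (n = 3) in WT proximal colon, the opposite direction (exact permutation p = 0.629, adjusted p = 0.725).

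Gzmb to Cd3e was 0.10 ± 0.31 in d30 BA (n = 5), -1.69 ± 1.00 in d30 WT (n = 4, exact permutation p = 0.0159, adjusted p = 0.107) and -1.87 ± 0.62 in d30 BA antibiotic (n = 5, exact permutation p = 0.00794 against d30 BA, adjusted p = 0.0952). Every d30 BA library but 1 was above all d30 WT libraries, and every antibiotic library was below all d30 BA libraries. Gzma to Gzmb was -1.57 ± 1.04 in d30 BA against 1.08 ± 0.81 in d30 WT (n = 5 and 4, exact permutation p = 0.0238, adjusted p = 0.119). Cd8a to Cd3e was -1.41 ± 1.02 in d30 BA and 0.12 ± 0.32 in d30 WT (n = 5 and 4, exact permutation p = 0.0397, adjusted p = 0.149), and ran from 1.01 to 1.56 in Apcfl/fl d4 and from 0.91 to 1.48 in WT d4. Itgae to Cd3e was 4.57 ± 0.33 in Apcfl/+ tumours and 2.57 ± 0.10 in WT small intestine (n = 5 and 3, exact permutation p = 0.0179, adjusted p = 0.107). The ratios rest on Cd3e, whose relation to Cd3g differed between groups as given above.

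**Figure D4:**
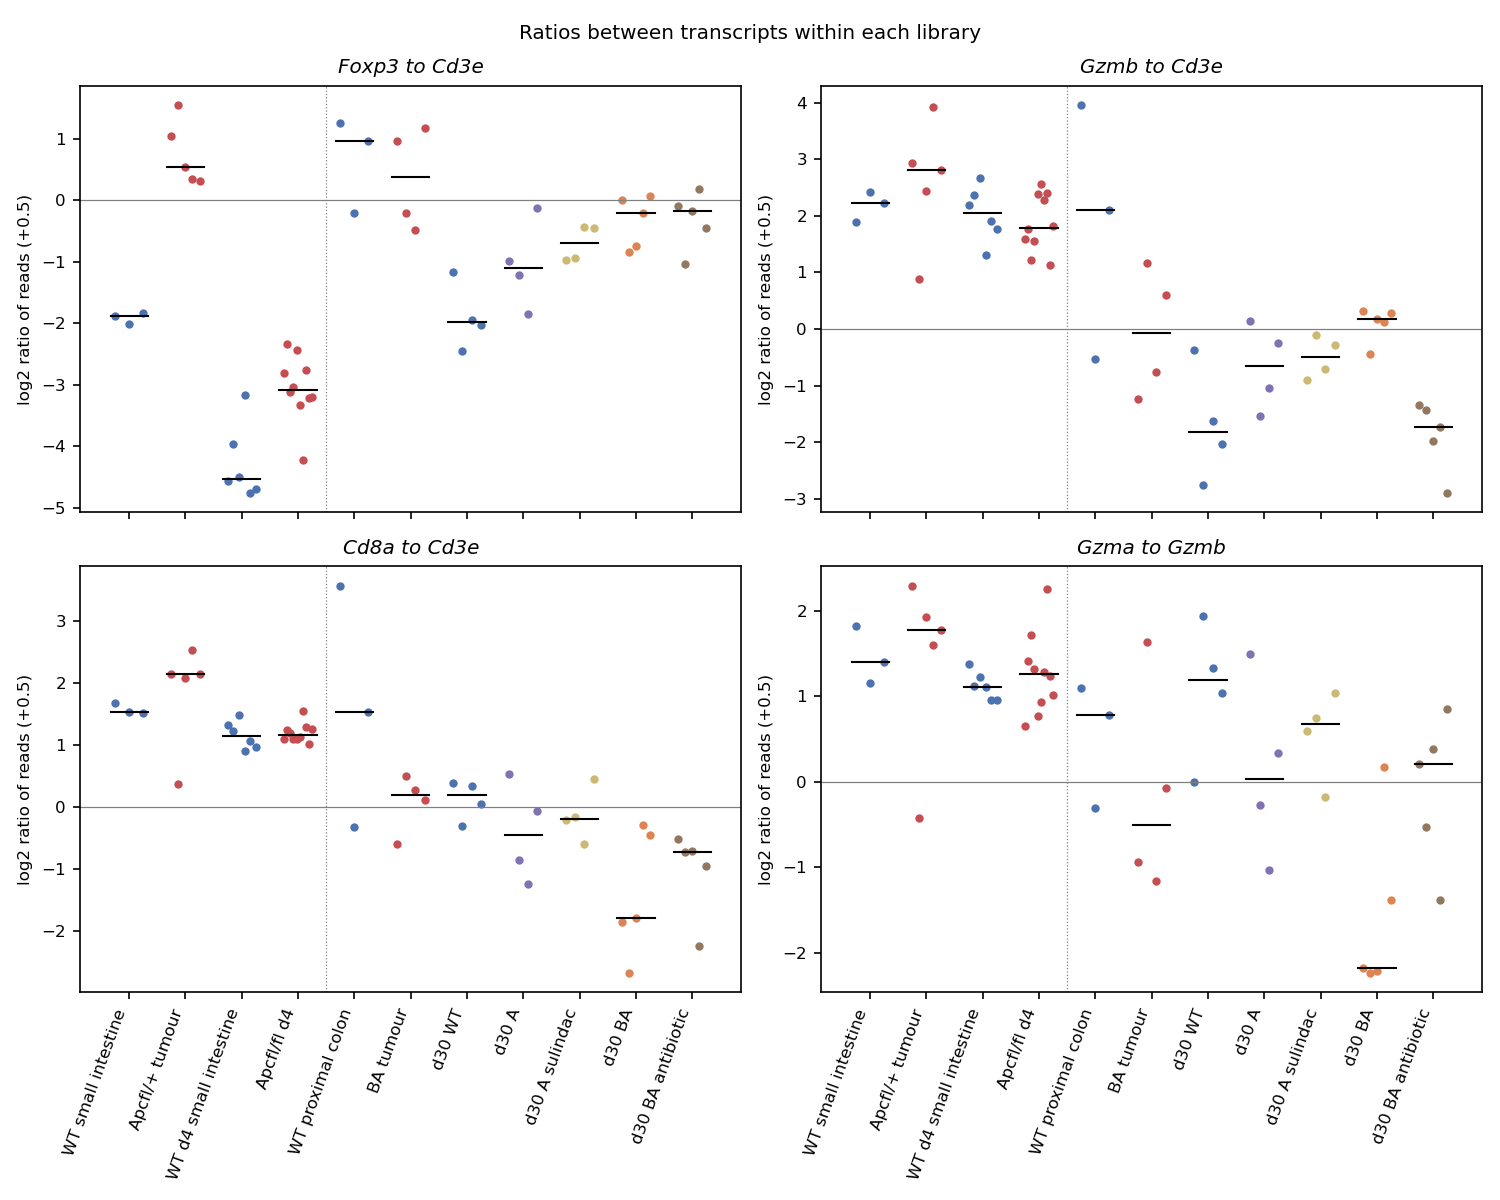
Log2 ratio of the reads of a pair of transcripts in every library (0.5 added to each count), by group, with black bars for the median. Gzmb to Cd3e lies between -0.45 and 0.33 in d30 BA and between -2.89 and -1.34 in d30 BA antibiotic, and Foxp3 to Cd3e lies between 0.31 and 1.54 in Apcfl/+ tumours and between -2.01 and -1.83 in WT small intestine.

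The genes whose pattern was most like that of a member, over all 53 libraries and 16985 candidate genes were taken by Pearson's r of log2 CPM, a measure that the difference between small intestine and colon enters. For Gzmb these were the glucose transporter Slc5a1, Exoc3l4 and the fructose transporter Slc2a5 (0.94 each). For Itgae they were Gpr155 (0.95), Ano6 (0.94) and Asah2 (0.94), for Cd3e Adamtsl5 (0.91), Samhd1 (0.90) and Capn15 (0.89), and for Foxp3 Gm45515 (0.75), Dcdc2b (0.73) and Ccdc171 (0.73). Libraries of 1 organ share that organ's expression, and the values are a description with no test.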

How the data were processed

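RNA of whole tissue from 53 mouse libraries in 11 groups was sequenced as paired 36-base reads. Per the submitters' processing notes and the study's methods, the authors checked reads with FastQC 0.11.8, trimmed them with Trim Galore 0.6.4, aligned them to GRCm38 with HISAT2 2.1.0 and counted reads per gene with featureCounts 1.6.4. The deposited values are these raw counts, with no normalisation, and 0 columns lacked a sample. Samples were grouped by the labels.

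Each of 10 pairs of groups was fitted on the counts of all genes kept by filterByExpr with edgeR 4.0.16 in R 4.3.3 (TMM scaling, quasi-likelihood test, two-sided, Benjamini-Hochberg over all genes tested, threshold 0.05), and 3 differences between effects were tested as interactions in the same way. Levels are counts per 1000000 reads of the library total (CPM), and fold changes are on the TMM scale, log2, with their standard error. Ratios of reads within a library (0.5 added to each count) were compared by exact permutation. Limits for few reads are those of 3 counts, and they cover counting error only. Tables were handled in Python 3.11.15 with pandas 2.3.3 and numpy 2.4.6, and the fits were tested on simulated data.

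The 9 members and the 16 lists of other genes were chosen with earlier results of these data known. All members were named. From each other list up to 4 called genes per direction with the smallest p and up to 2 uncalled genes with the largest fold change could be named in a comparison, and Trac, Trbc2, Cd4, Prf1, Ifng, Il15, Ptprc, Epcam, Cxcl9 and Tgfb1 anywhere. The genes most like a member were the 3 with the highest Pearson correlation over all libraries. Alternatives were RLE scaling, DESeq2 1.42.0, a joint fit of the 5 groups taken at day 30, a block for the replicate number, no filter on low counts, 0.1 read added in ratios, and each library left out in turn. Scaling by library total, leaving out libraries 1 and 8 of Apcfl/fl d4, and leaving out libraries in the interaction tests were added after the data were seen. A result that needs an item withheld from the text is not reported here.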

Additional observations from a re-analysis of the deposited data

Results flagged for a closer look

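A single library stood far from the rest of its group, by the gap to its nearest neighbour as a share of the group's range, in 16 of 81 combinations of member and group. Chance gives about 1 in 20 for independent groups, but the members share libraries and vary together, so the 2 shares cannot be compared. In BA tumour 2, Gzma was at 8.32 CPM (0.305 to 0.772 CPM in the other tumours), Gzmb at 2.66 CPM (0.611 to 0.812) and Ccl5 at 2.91 CPM (0.669 to 0.975), while in BA tumour 1 Foxp3 was at 2.9 CPM (0.947 to 1.22). In d30 WT 1, Foxp3 was at 1.47 CPM (0.43 to 0.531 in the other WT libraries) and Gzmb at 2.55 CPM (0.425 to 0.659). In d30 BA antibiotic 3, Cd3g was at 2.39 CPM (1.05 to 1.28) and Ccl5 at 3.39 CPM (0.368 to 1.1), and in antibiotic library 5 Gzmb was at 0.123 CPM, which is 2 reads (0.332 to 0.367). In d30 BA 4, Gzma was at 1.5 CPM (0.168 to 0.538), and in d30 A 1 Cd8b1 was at 0.742 CPM, 11 reads (0.0614 to 0.112).

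In the small intestine, Apcfl/fl d4 8 had Cd3g at 13.4 CPM (2.63 to 7.74 in the others) and Itgae at 3.6 CPM (11.9 to 19.3). Apcfl/fl d4 6 had Gzmb at 34.9 CPM (9.65 to 20.2). Apcfl/fl d4 1 had Cd8b1 at 1.93 CPM, which is 1 read (0.183 to 1.1), and WT d4 4 had Foxp3 at 1.61 CPM (0.37 to 0.59). What sets these libraries apart was not tested.

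A difference between effects passed the interaction test of edgeR (adjusted p under 0.05) in 9 cases. BA tumours against Apcfl/+ tumours gave 3.84 for Ccl5, 4.07 for Cd3e, 1.80 for Cd3g, 2.52 for Cd8a and 1.79 for Itgae on the log2 scale. BA tumours against d30 BA gave 2.01 for Ccl5. Apcfl/+ tumours against Apcfl/fl d4 gave -1.60 for Ccl5, -1.66 for Cd3e and -1.27 for Cd8a.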

How the results depend on the processing

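Of 1707 alternative fits of single members, 76 had the opposite sign, and 0 of these belonged to a member called in the fit as reported. RLE scaling and leaving out libraries 1 and 8 of Apcfl/fl d4 changed no call of a member. Counts of members called ranged, with each library left out in turn, over 0 to 1 for BA tumours, 4 to 6 for d30 BA, 3 to 5 for antibiotics against d30 WT, 7 to 9 for Apcfl/+ tumours, 3 to 5 for d30 BA against d30 A, and, for the differences between effects, 4 to 7 (BA against Apcfl/+ tumours) and 0 to 2 (BA tumours against d30 BA). The last was 0 without the low-count filter. Ratios called ranged over 0 to 1.

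Counts over all genes ranged over 696 to 3641 for BA tumours, 5606 to 8274 for antibiotics against d30 WT, 15 to 28 for d30 A, 4 to 18 for sulindac against d30 WT, 1300 to 2683 for antibiotics against d30 BA, 2225 to 5051 for BA tumours against d30 BA, and 3603 to 7295 for Apcfl/+ tumours against Apcfl/fl d4. DESeq2 called 132 genes for d30 A, 108 for sulindac against d30 WT and 7 against d30 A. Without the filter these were 72, 24 and 1. With all 5 day-30 groups in 1 fit, 29 were called for sulindac against d30 WT and 1074 for antibiotics against d30 BA. The cause was not tested.

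The replicate numbers did not pair the samples: deviations of same-numbered libraries correlated by -0.44 to 0.23, and in no comparison were all pairs over 0.1. With the replicate number as a block, 848 genes were called for BA tumours, 8211 for Apcfl/+ tumours, 1284 for antibiotics against d30 BA, 2 for sulindac against d30 WT and 1 against d30 A. The block turned the sign of Cd3g in BA tumours (0.05), Gzma in sulindac against d30 A (0.49) and Gzmb in d30 BA against d30 A (0.02).

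Scaling by library total turned Ccl5 in d30 A (0.01), Gzmb in sulindac against d30 A (-0.01) and Itgae in d30 BA against d30 A (-0.18). Leaving out the filter turned Cd3g in sulindac against d30 WT (-0.01) and Foxp3 in BA tumours against d30 BA (-0.04). With each library left out in turn, log2 values of uncalled members crossed 0. In BA tumours the ranges were -0.51 to 0.23 (Cd3g), -3.00 to 0.57 (Gzma), -0.41 to 0.81 (Ccl5) and -0.76 to 0.03 (Cd8a). In antibiotics they were -0.12 to 0.06 (Itgae) against d30 WT, and -0.23 to 0.14 (Cd3g), -0.27 to 0.23 (Cd8a) and -0.33 to 0.66 (Ccl5) against d30 BA. In d30 A they were -0.21 to 0.34 (Cd3g), -0.44 to 1.13 (Gzma), -0.17 to 0.09 (Cd3e) and -0.43 to 0.22 (Ccl5). In sulindac against d30 WT they were -0.06 to 0.19 (Ccl5), -0.15 to 0.09 (Cd3g) and -0.24 to 0.03 (Cd3e), and against d30 A -0.14 to 0.01 (Cd3e), -0.47 to 1.13 (Gzma), -0.26 to 0.37 (Gzmb), -0.12 to 0.54 (Cd8a), -0.34 to 0.23 (Cd3g) and -0.16 to 0.49 (Ccl5). In d30 BA against d30 A they were -0.22 to 0.34 (Foxp3), -0.27 to 0.28 (Gzmb) and -0.04 to 0.19 (Itgae). For differences between effects they were -0.68 to 2.85 (Gzma, BA against Apcfl/+ tumours), -0.43 to 0.64 (Foxp3) and -1.54 to 1.81 (Gzma) for BA tumours against d30 BA, and -0.41 to 0.15 (Foxp3, Apcfl/+ tumours against Apcfl/fl d4). Depth limits Cd8b1 in the colon, at 0 to 11 reads per library.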
